A study of Rattus norvegicus with 3 samples.

Results

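Mature oligodendrocytes, the cells that wrap axons of the central nervous system in myelin, were examined in single-nucleus RNA libraries of injured rat spinal cord. A nucleus was chosen by its own UMIs (unique molecular identifiers, each a counted RNA molecule): at least 1 UMI in 3 or more of the mature genes Mobp, St18, Mog, Mag, Opalin, Map7 and Slc24a2, and in no more than 1 of the other-lineage genes Itgam, Csf1r, Flt1, Mecom, Col1a1, Col3a1 and Snap25. Enpp6 and Bcas1, genes of newly forming oligodendrocytes, could not both be detected, and at most 2 of the precursor genes Tnr, Ptprz1, Sox6, Pcdh15 and Nxph1 could be. The rule took 258 of 5326 nuclei, 67 of 906 in the HGF scaffold library, 91 of 2168 in the scaffold library and 100 of 2252 in the untreated library. Values of these 21 genes chose the nuclei and are given below as description alone.

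All 3 libraries came from the lesion epicenter of wild-type Sprague Dawley rats, 17 weeks old, 49 days after spinal cord injury. The HGF scaffold group carried for 7 days an implanted scaffold that releases hepatocyte growth factor (HGF), the scaffold group carried for 7 days a scaffold labelled without HGF, and the untreated group had the injury and no implant. Each group was 1 library, and the number of animals behind it is not given in the sources used here, so no difference could be tested between conditions and every interval below is an exact 95% interval that covers counting error only. An effect of the implantation surgery and an effect of the scaffold cannot be told apart, because both are missing from the untreated group.

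Oligodendrocytes arise from precursor cells, pass through a short newly forming stage and then express the proteins and lipids of the myelin sheath, among them myelin basic protein (Mbp). The transcription factor MYRF keeps the myelin programme on in mature cells. HGF acts through the receptor tyrosine kinase MET and its adaptors GAB1, GRB2 and SHP2. After spinal cord injury, oligodendrocytes die near the lesion, the remaining axons lose myelin, and part of it is rebuilt, while several myelin proteins are known to inhibit axon growth.

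Mbp stood at 5428 CPM in HGF scaffold, 3831 CPM in scaffold and 4293 CPM in untreated nuclei, where CPM scales the counts to 1000000 UMIs summed over the chosen nuclei of a library. In all other nuclei of the same libraries it stood at 993 CPM (HGF scaffold), 1347 CPM (scaffold) and 1877 CPM (untreated). Ugt8, outside the rule as Mbp is, encodes the enzyme of galactosylceramide synthesis and reached 223 CPM with the HGF scaffold, 149 CPM with the scaffold and 229.8 CPM untreated, against 57.3 CPM (HGF scaffold), 71.9 CPM (scaffold) and 115 CPM (untreated) in other nuclei. Both genes were thus higher in the chosen nuclei than in the others in each library, in keeping with the label. Among the genes of the rule, Mobp was at 1521 CPM in HGF scaffold, 732 CPM in scaffold and 956 CPM in untreated nuclei, and Opalin, a gene of late maturation, was at 279 CPM (HGF scaffold), 183 CPM (scaffold) and 262 CPM (untreated). St18, a zinc finger transcription factor gene, was at 935 CPM with the HGF scaffold, 703 CPM with the scaffold and 961 CPM untreated.

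The chosen nuclei also held RNA that belongs to other cell types, and more of it in some libraries than in others. Summed over 14 myeloid marker genes (macrophages and microglia), the chosen nuclei held 2037 CPM with the HGF scaffold, 2253 CPM with the scaffold and 1016 CPM without treatment, against 5906 CPM (HGF scaffold), 5116 CPM (scaffold) and 1688 CPM (untreated) in the other nuclei of those libraries. At least 3 myeloid markers were detected in 16 of 67 HGF scaffold nuclei, 46 of 91 scaffold nuclei and 19 of 100 untreated nuclei. With each nucleus thinned to 500 UMIs, which sets the depths equal, the counts were 7 with the HGF scaffold, 10 with the scaffold and 3 without treatment. Myeloid RNA was thus lowest in the untreated nuclei by each of these measures. Astrocyte markers summed to 488 CPM in HGF scaffold nuclei, 1641 CPM in scaffold nuclei and 1227 CPM in untreated nuclei. Schwann cell markers summed to 55.8 CPM in HGF scaffold, 154 CPM in scaffold and 864 CPM in untreated nuclei. Neuron markers summed to 837 CPM (HGF scaffold), 789 CPM (scaffold) and 1223 CPM (untreated), and fibroblast markers to 600.0 CPM (HGF scaffold), 549 CPM (scaffold) and 809 CPM (untreated). Untreated nuclei were thus highest in Schwann cell, neuron and fibroblast markers, and scaffold nuclei in astrocyte markers. Neutrophil markers summed to 544 CPM in HGF scaffold nuclei, 840 CPM in scaffold nuclei and 23.0 CPM in untreated nuclei. No UMI was found in HGF scaffold nuclei for 6 of 8 Schwann cell, 6 of 11 neuron and 2 of 9 astrocyte markers, against 0 of 8, 4 of 11 and 0 of 9 in untreated nuclei. Of the 14 myeloid markers 2 were at 0 in each library. Free RNA in droplets, doublets and a broad membership rule all give such counts, and they cannot be told apart here. The doublet caller Scrublet marked none of the chosen nuclei and 2 of all nuclei, which is too few for it to have worked.

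**Figure D1:**
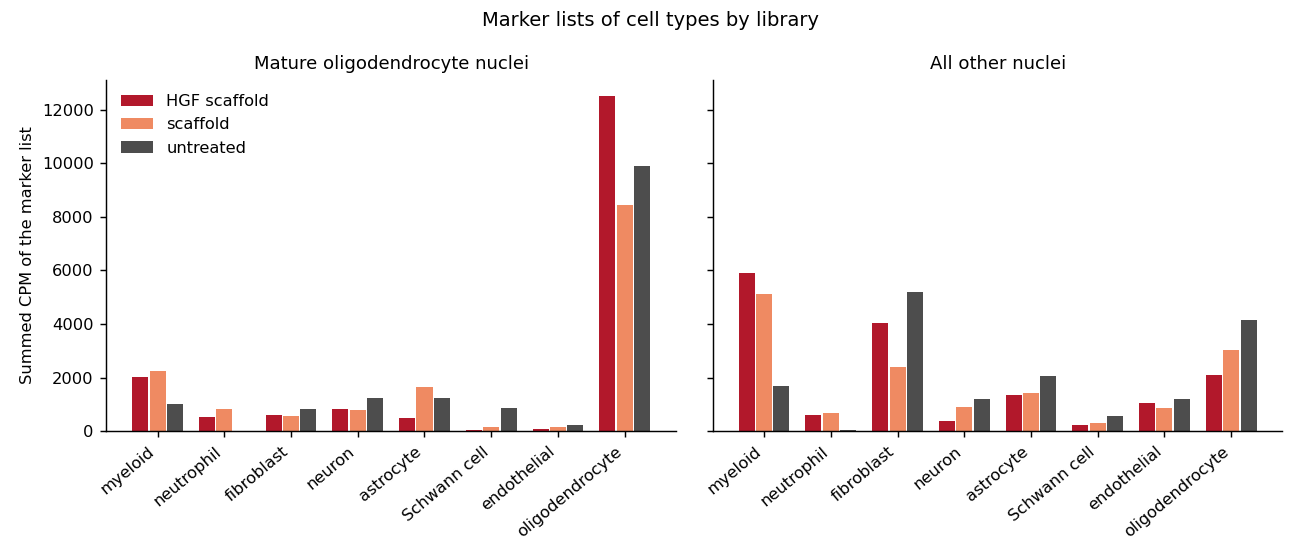
Summed CPM of marker genes of 8 cell types, oligodendrocytes included, in mature oligodendrocyte nuclei and in all other nuclei of the HGF scaffold, scaffold and untreated libraries (1 library per group). In the chosen nuclei myeloid markers were at 2037 and 2253 CPM with implants and 1016 CPM without treatment, while Schwann cell markers were at 864 CPM in the untreated library and 55.8 CPM in the HGF scaffold library.

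Depth differed between the libraries. The chosen nuclei held 71668 UMIs in the HGF scaffold library, 174905 in the scaffold library and 217563 in the untreated library, with medians per nucleus of 880 UMIs (HGF scaffold), 1807 UMIs (scaffold) and 1890.5 UMIs (untreated). The HGF scaffold values therefore rest on the fewest counts. Of the 4 barcodes that 2 libraries shared, none was a chosen nucleus.

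Mature oligodendrocytes made up 7.40% of nuclei with the HGF scaffold (interval 5.78 to 9.30), 4.20% with the scaffold (3.39 to 5.13) and 4.44% without treatment (3.63 to 5.37). The share with the HGF scaffold was 1.76 times that with the scaffold (interval 1.27 to 2.44) and 1.67 times that without treatment (1.20 to 2.29). Thinning every nucleus to 500 UMIs before the rule was applied removed this difference. The deposited nuclei held at least 500 UMIs each, so none was left out. The shares were then 7.17% with the HGF scaffold (65 nuclei), 6.60% with the scaffold (143 nuclei) and 8.61% without treatment (194 nuclei). The ratio of HGF scaffold to scaffold was then 1.09 (0.798 to 1.47), that of HGF scaffold to untreated 0.833 (0.619 to 1.11) and that of scaffold to untreated 0.766 (0.613 to 0.955). The order of the libraries thus depended on depth, and no share here gives the number of oligodendrocytes in a cord. Of the nuclei chosen after thinning, 49 (HGF scaffold), 48 (scaffold) and 50 (untreated) were also chosen on all UMIs. The others failed an excluding clause on all their UMIs, because thinning hid UMIs of excluding genes. The thinned sets had medians of 1071 UMIs (HGF scaffold), 2537 UMIs (scaffold) and 2739 UMIs (untreated). The rule after thinning thus took largely other nuclei in 2 libraries. At least 3 mature markers were held by 169 nuclei with the HGF scaffold, 600 with the scaffold and 601 without treatment, with medians of 1513 UMIs (HGF scaffold), 3418 UMIs (scaffold) and 3220 UMIs (untreated), deeper than the nuclei that the whole rule kept. With these 3 markers and no other clause, the share with the HGF scaffold was 0.674 times that with the scaffold (interval 0.565 to 0.801) and 0.699 times that without treatment (0.586 to 0.830), so both differences turned round without the other clauses. After thinning, the 3 markers alone gave ratios of 1.08 (0.818 to 1.41) and 0.818 (0.629 to 1.06). Of these, the other-lineage clause alone removed 59 nuclei with the HGF scaffold, 275 with the scaffold and 183 without treatment. The clause on Enpp6 and Bcas1 alone removed 18 (HGF scaffold), 38 (scaffold) and 99 (untreated), and the precursor clause alone 2 (HGF scaffold), 8 (scaffold) and 9 (untreated). The rule kept 39.6% of the 3-marker nuclei with the HGF scaffold, 15.2% with the scaffold and 16.6% without treatment.

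**Figure D2:**
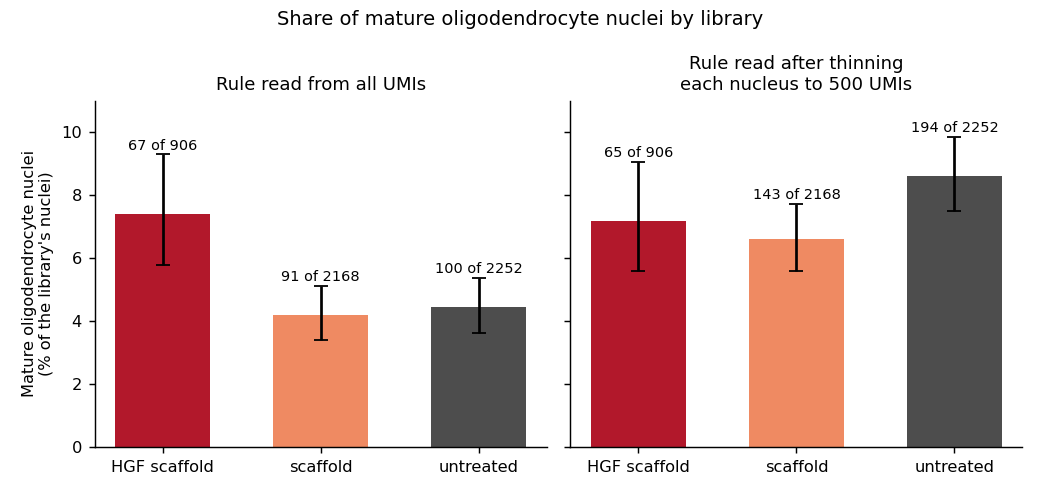
Share of nuclei called mature oligodendrocytes in each library, in percent with exact 95% binomial intervals, for the rule on all UMIs and after thinning to 500 UMIs. The HGF scaffold library was highest at 7.40% on all UMIs, and the untreated library was highest at 8.61% after thinning.

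Nuclei on either side of the marker threshold differed in degree in Mbp. Chosen nuclei with exactly 3 of the 7 mature genes (20, 27 and 27 nuclei in the HGF scaffold, scaffold and untreated libraries) had Mbp at 4760.0 CPM (HGF scaffold), 2609 CPM (scaffold) and 1721 CPM (untreated). Nuclei that met every other clause but held 2 of the 7 (24 HGF scaffold, 97 scaffold and 81 untreated nuclei) had 2001 CPM (HGF scaffold), 1182 CPM (scaffold) and 1172 CPM (untreated). Chosen nuclei with 4 or more had 5636 CPM (HGF scaffold), 4219 CPM (scaffold) and 4784 CPM (untreated). Just inside the threshold, the untreated nuclei were thus nearer in Mbp to those just outside it, the HGF scaffold nuclei were nearer to those with 4 or more markers, and the scaffold nuclei lay between. Ugt8, on 2 to 47 UMIs per set, did not follow this order. With exactly 3 markers it was at 353 CPM (HGF scaffold), 213 CPM (scaffold) and 86.1 CPM (untreated). With 2 it was at 88.9 CPM (HGF scaffold), 104 CPM (scaffold) and 220 CPM (untreated). With 4 or more it was at 183 CPM (HGF scaffold), 128 CPM (scaffold) and 257 CPM (untreated).

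Newly forming oligodendrocytes, nuclei with both Enpp6 and Bcas1 and at most 1 other-lineage gene, numbered 27 with the HGF scaffold, 50 with the scaffold and 118 without treatment. They made up 2.98% of nuclei with the HGF scaffold, 2.31% with the scaffold and 5.24% without treatment, and after thinning they numbered 13 (HGF scaffold), 27 (scaffold) and 57 (untreated). After thinning, their shares were 1.43% (HGF scaffold), 1.25% (scaffold) and 2.53% (untreated). The order of the libraries therefore differed from that of the mature nuclei on all UMIs. After thinning the order of shares was the same for both stages, with the untreated library highest and the scaffold library lowest.

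Genes that mark these nuclei were mostly lower in the scaffold library than in either other library. They were chosen by their level in the nuclei, so their counts are a description. Outside the rule, genes at least 3-fold higher in the chosen nuclei than in other nuclei numbered 108 with enough UMIs in scaffold and untreated nuclei together, and 84 of them had a scaffold to untreated ratio below 1 (median log2 ratio -0.33). For HGF scaffold against scaffold, 84 of 94 such genes had a ratio above 1 (median 0.55), and for HGF scaffold against untreated 67 of 102 did (median 0.23). The medians of all genes measured were 0.10, -0.03 and 0.02 in those comparisons. The comparisons share libraries, so the low scaffold values enter both of the first 2. CPM is a share of all UMIs, and the scaffold nuclei also held the most myeloid and astrocyte RNA, whose part in these medians was not tested. With the rule applied after thinning the 3 medians were -0.43, 0.72 and 0.33. In nuclei with at least 2 of Mobp, Mog, Mag and Opalin they were -0.41, 0.52 and -0.00538, and for HGF scaffold against untreated 49 of 98 such genes were then above 1 and 49 below. The last comparison thus had no direction that held across memberships.

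Among all genes with at least 20 UMIs summed over the nuclei of both libraries compared, 9.04% were at least 2-fold higher and 4.25% at least 2-fold lower in scaffold than in untreated nuclei. Of HGF scaffold against scaffold, 4.24% were higher and 12.8% lower, and of HGF scaffold against untreated 7% were higher and 12% lower. In genes these were 355 and 167 of 3927, 123 and 370 of 2899, and 213 and 365 of 3045. The split depended on the scaling. With median-of-ratios factors it became 261 higher to 231 lower for scaffold to untreated, 102 to 397 for HGF scaffold to scaffold and 109 to 511 for HGF scaffold to untreated. With trimmed-mean (TMM) factors it became 271 to 218, 98 to 404 and 109 to 511. These factors move every log2 ratio by -0.16 and -0.14 in the first comparison, by -0.04 and -0.06 in the second and by -0.20 in the last. With 1 library per group these counts describe the libraries and have no replicate check.

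Genes of the compact myelin sheath and its membranes were, by their median, at like or slightly lower levels in scaffold than in untreated nuclei, and higher with the HGF scaffold than with the scaffold. Of 16 such genes outside the rule in the files, 13 had enough UMIs in scaffold against untreated nuclei, and of these 0 were at least 2-fold higher and 2 lower (Tspan2 and Mal), with a median log2 ratio of -0.13. Mal had enough UMIs only through the untreated library, so its direction was fixed by that minimum. In HGF scaffold against scaffold 1 of 9 was higher and 0 lower, with a median of 0.48, and in HGF scaffold against untreated 0 of 12 passed in either direction, with a median of 0.19, which became -0.01 under both other scalings. In the same order of comparisons, the 3 medians without the nuclei that held 3 or more myeloid markers were 0.05, 0.59 and 0.44. Without those that held 3 or more markers of a non-myeloid type they were 0.02, 0.30 and 0.24. The HGF scaffold to scaffold median was thus above 0 in these sets too. These removals depend on depth, and the nuclei left can still hold RNA of other cell types, whose part was not tested.

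Mbp was 1.42 times as high with the HGF scaffold as with the scaffold and 0.892 times as high with the scaffold as without treatment, with intervals of 1.25 to 1.61 and 0.807 to 0.986. Mbp RNA is carried into the myelin sheath for local translation, so nuclei hold the part not yet exported. Cldn11, the claudin of the tight junctions between myelin layers, was at 558 CPM in HGF scaffold, 349 CPM in scaffold and 506 CPM in untreated nuclei. This gave a ratio of 1.60 (interval 1.05 to 2.42) for HGF scaffold to scaffold. Hapln2, a hyaluronan link protein of the node of Ranvier, was at 349 CPM with the HGF scaffold, 309 CPM with the scaffold and 198 CPM untreated. Its level had a ratio of 1.76 (interval 1.03 to 2.96) for HGF scaffold to untreated, which was 1.59 (interval 0.892 to 2.77) without the highest nucleus of each library. For scaffold to untreated the ratio was 1.56 (interval 1.03 to 2.39), so Hapln2 was higher in the chosen scaffold than untreated nuclei, unlike Mbp. That ratio was 1.05 with the rule applied after thinning. It was 1.30 without nuclei with 3 or more non-myeloid markers and 1.74 in nuclei with at least 2 of Mobp, Mog, Mag and Opalin. Cnp and Mal, a nucleotide phosphodiesterase and a raft protein of myelin, had few UMIs. Cnp had 7 UMIs in HGF scaffold, 9 in scaffold and 22 in untreated nuclei, and no order of its levels could be read at this depth. Mal had 5 UMIs in HGF scaffold, 6 in scaffold and 20 in untreated nuclei, with a scaffold to untreated ratio of 0.373 (interval 0.123 to 0.963) that became 1.07 with the rule after thinning. No direction is read from that ratio, because Mal passed the UMI minimum only through the untreated library. Pmp22, a protein of peripheral myelin made by Schwann cells, had 0 UMIs in HGF scaffold, 14 in scaffold and 121 in untreated nuclei. This pattern followed the Schwann cell markers given above, and 18 untreated nuclei held it.

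**Figure D3:**
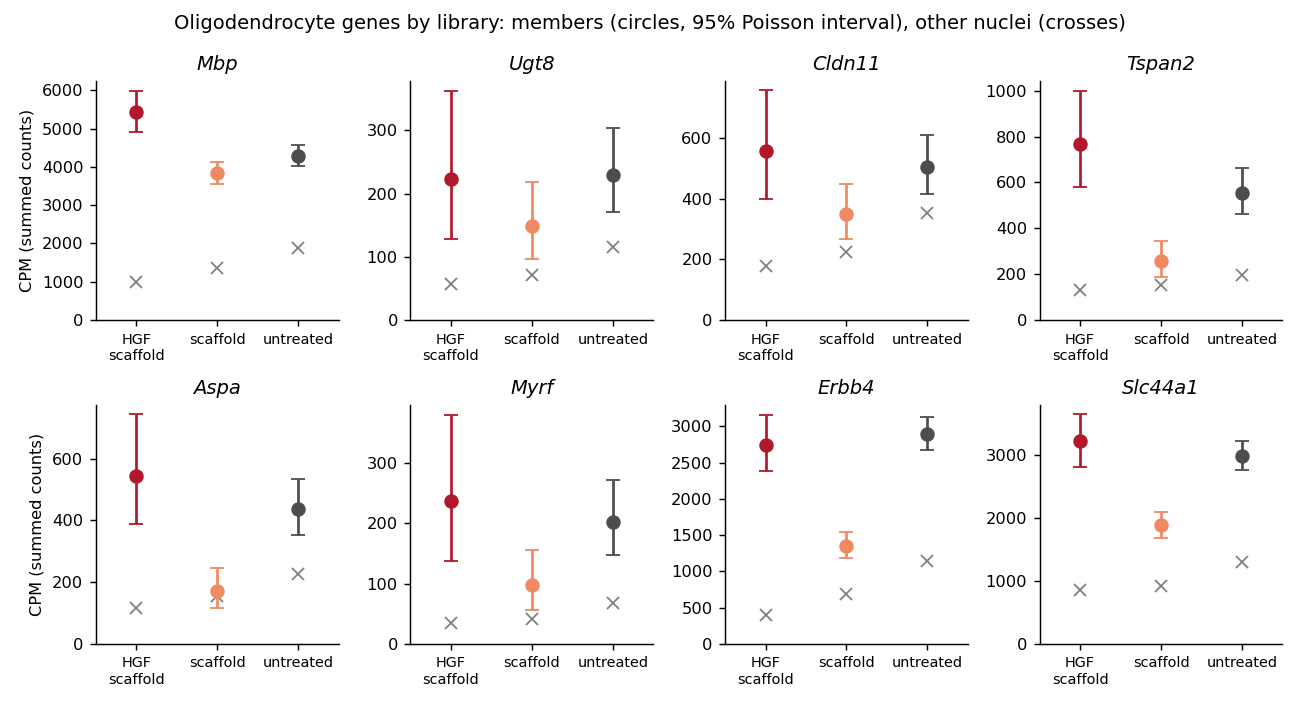
Levels of oligodendrocyte genes in mature oligodendrocyte nuclei by library, in CPM on linear axes from 0, as circles with exact Poisson 95% intervals, and in all other nuclei of each library as crosses (1 library per group). Tspan2, Aspa and Erbb4 were at 767, 544 and 2749 CPM in the HGF scaffold library, at 257, 172 and 1355 CPM in the scaffold library and at 556, 437 and 2891 CPM in the untreated library, and thus lowest with the scaffold.

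Tspan2, a tetraspanin of the myelin membrane, was the 1 gene of this list past 2-fold between HGF scaffold and scaffold nuclei, at 767 CPM in HGF scaffold, 257 CPM in scaffold and 556 CPM in untreated nuclei. It was 2.98 times as high with the HGF scaffold as with the scaffold (interval 1.97 to 4.53), and its ratio of scaffold to untreated was 0.463 (interval 0.321 to 0.656). Aspa, the enzyme that releases acetate from N-acetylaspartate for myelin lipid synthesis, was at 544 CPM in HGF scaffold, 172 CPM in scaffold and 437 CPM in untreated nuclei. Its ratios were 3.17 (interval 1.92 to 5.29) for HGF scaffold to scaffold and 0.393 (interval 0.251 to 0.598) for scaffold to untreated. Scaffold nuclei were the low library for both genes. Without the single nucleus of each library that held the most UMIs of the gene, the HGF scaffold to scaffold ratios were 2.95 (interval 1.92 to 4.58) for Tspan2 and 3.21 (interval 1.89 to 5.52) for Aspa, so neither rested on 1 nucleus. When the rule was applied after thinning, the scaffold to untreated ratios were 0.708 for Tspan2 and 0.637 for Aspa, and the HGF scaffold to scaffold ratio of Aspa was 2.09. The size of these differences thus depended on which nuclei counted as mature.

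Usp54, a gene of the ubiquitin-specific peptidase family, was at 2093 CPM in HGF scaffold, 738 CPM in scaffold and 1167 CPM in untreated nuclei and 2.84 times as high with the HGF scaffold as with the scaffold. The promoter windows of these 3 genes are shown because they had among the highest ratios of HGF scaffold to scaffold and share the low level in the scaffold library. They run from 250 bases before to 50 after the start in RefSeq, build GRCr8. Capitals mark the letters AACAAT or ACAAAG, the core read by SOX family factors such as SOX10, on either strand (ATTGTT and CTTTGT when reversed).
Tspan2, chr2:192866030-192866329, plus strand: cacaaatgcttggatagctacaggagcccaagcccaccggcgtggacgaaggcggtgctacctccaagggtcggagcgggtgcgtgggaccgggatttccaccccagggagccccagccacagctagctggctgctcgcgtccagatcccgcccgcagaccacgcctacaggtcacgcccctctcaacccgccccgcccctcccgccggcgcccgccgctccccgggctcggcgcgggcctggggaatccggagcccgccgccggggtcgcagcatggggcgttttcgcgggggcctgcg
Aspa, chr10:58438988-58439287, minus strand: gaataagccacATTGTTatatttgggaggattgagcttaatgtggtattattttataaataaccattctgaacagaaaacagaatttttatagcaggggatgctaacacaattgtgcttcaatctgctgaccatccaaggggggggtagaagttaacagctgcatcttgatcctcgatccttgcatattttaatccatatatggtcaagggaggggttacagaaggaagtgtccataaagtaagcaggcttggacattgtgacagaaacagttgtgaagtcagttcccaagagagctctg
Usp54, chr15:3741649-3741948, plus strand: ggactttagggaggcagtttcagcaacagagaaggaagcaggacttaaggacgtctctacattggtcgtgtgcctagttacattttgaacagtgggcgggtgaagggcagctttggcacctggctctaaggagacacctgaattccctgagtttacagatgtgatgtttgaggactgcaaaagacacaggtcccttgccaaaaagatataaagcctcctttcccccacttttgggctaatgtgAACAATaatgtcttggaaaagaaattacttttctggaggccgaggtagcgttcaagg
Aspa held ATTGTT starting 239 bases before the start and Usp54 held AACAAT starting 7 bases before it, while the Tspan2 window held neither. Of 33469 rat promoter windows of this length, 11.7% held AACAAT, 18.8% ACAAAG and 27.7% either. A match is a run of letters and no measurement of binding.

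Genes of myelin lipid synthesis had no common direction. Lists count the members with enough UMIs, and the others were too low to read. Their counts past 2-fold stand beside the shares over all genes given above for each comparison. A member can pass the minimum of 20 UMIs through the library where it is high alone, and would not pass if both libraries stood at its lower level. Of the lists plotted by their medians, this held for 3 of 9 transporters in HGF scaffold against scaffold and 3 of 13 receptors in HGF scaffold against untreated nuclei, and for 0 to 2 members of a list in each other comparison, so the counts and medians are a description. In scaffold against untreated nuclei the list had 1 higher and 1 lower by 2-fold of 11 measured, with a median log2 ratio of -0.05, and in HGF scaffold against scaffold 1 higher and 1 lower by 2-fold of 11 measured, with a median of 0.28. In HGF scaffold against untreated 2 were higher and 1 lower of 10, with a median of 0.03 that became -0.17 under both other scalings. For Ugt8, the galactosyltransferase whose levels are given above, each of the 3 ratio intervals included 1. Scd2, a fatty acid desaturase, was at 139.5 CPM with the HGF scaffold, 286 CPM with the scaffold and 317 CPM untreated, a ratio of 0.440 (interval 0.202 to 0.859) for HGF scaffold to untreated. Sgms1, a sphingomyelin synthase, was at 237 CPM (HGF scaffold), 440.2 CPM (scaffold) and 331 CPM (untreated), a ratio of 0.539 (interval 0.299 to 0.920) for HGF scaffold to scaffold. Both of these genes were lowest with the HGF scaffold, unlike Mbp and Tspan2.

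Myrf, the transcription factor of the myelin programme, was at 237 CPM in HGF scaffold, 97.2 CPM in scaffold and 202 CPM in untreated nuclei. It was 2.44 times as high with the HGF scaffold as with the scaffold (interval 1.17 to 5.09), and its scaffold to untreated ratio was 0.481 (interval 0.257 to 0.858). Creb5, a CREB family transcription factor, was at 851 CPM with the HGF scaffold, 686 CPM with the scaffold and 1126 CPM untreated, a scaffold to untreated ratio of 0.609 (interval 0.486 to 0.761). Scaffold nuclei were again lowest for both.

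Genes of the axoglial junction, where myelin loops attach beside the node, and of the septin filaments that line compact myelin had few members past 2-fold. In scaffold against untreated nuclei 0 of 15 passed 2-fold in either direction (median log2 ratio -0.25), and in HGF scaffold against scaffold 0 of 14 were higher and 1 lower (median 0.16). Nfasc, the gene of the glial neurofascin of the paranode, was at 2428 CPM in HGF scaffold, 1429 CPM in scaffold and 1466 CPM in untreated nuclei. Its ratio was 1.70 (interval 1.39 to 2.07) for HGF scaffold to scaffold and 0.975 (interval 0.823 to 1.15) for scaffold to untreated. Cntn2, a contactin of the juxtaparanode, was at 223 CPM with the HGF scaffold, 189 CPM with the scaffold and 229.8 CPM untreated, and its 3 intervals included 1. Magi2, a scaffolding protein gene, was at 5358 CPM (HGF scaffold), 4968 CPM (scaffold) and 7134 CPM (untreated), a ratio of 0.696 (interval 0.640 to 0.757) for scaffold to untreated. Sept7, a core septin, was at 2121 CPM in HGF scaffold, 1172 CPM in scaffold and 1572 CPM in untreated nuclei, a ratio of 1.81 (interval 1.46 to 2.24) for HGF scaffold to scaffold.

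Cytoskeletal genes of oligodendrocytes showed the same order for some members. The list had 0 higher and 0 lower by 2-fold of 11 measured in scaffold against untreated nuclei (median log2 ratio -0.19) and 1 higher and 0 lower by 2-fold of 11 measured in HGF scaffold against scaffold nuclei (median 0.22). Tubb4a, the beta tubulin mutated in a hypomyelinating leukodystrophy, was at 516 CPM in HGF scaffold, 257 CPM in scaffold and 276 CPM in untreated nuclei, a ratio of 2.01 (interval 1.26 to 3.17) for HGF scaffold to scaffold. Phldb1 was at 823 CPM with the HGF scaffold, 435 CPM with the scaffold and 611 CPM untreated, a ratio of 1.89 (interval 1.33 to 2.70) in the same comparison. Mapt, the gene of the microtubule protein tau, was at 1535 CPM (HGF scaffold), 1315 CPM (scaffold) and 1544 CPM (untreated), and its 3 intervals included 1.

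Transporters gave medians of -0.12, 0.35 and 0.17 on the log2 scale for scaffold to untreated, HGF scaffold to scaffold and HGF scaffold to untreated, the last becoming -0.03 under both other scalings. In scaffold against untreated 1 of 10 was higher and 1 lower by 2-fold, and in HGF scaffold against scaffold 2 of 9 were higher. Of these measured members, 1 had enough UMIs only through the scaffold library and 3 only through the HGF scaffold library, where each was higher. These members enter the counts and medians, so no direction of the list is read. Slc44a1, a choline transporter, was at 3223 CPM in HGF scaffold, 1887 CPM in scaffold and 2988 CPM in untreated nuclei. The ratios were 1.71 (interval 1.44 to 2.03) for HGF scaffold to scaffold and 0.632 (interval 0.551 to 0.722) for scaffold to untreated. Slc12a2, a sodium, potassium and chloride cotransporter, was at 739.5 CPM with the HGF scaffold, 446 CPM with the scaffold and 588 CPM untreated, a ratio of 1.66 (interval 1.15 to 2.38) for HGF scaffold to scaffold. The choline transporter was thus among the genes low in the scaffold library.

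Receptor genes split by member. Erbb4, a receptor for neuregulins from axons, was at 2749 CPM in HGF scaffold, 1355 CPM in scaffold and 2891 CPM in untreated nuclei. Its levels had ratios of 2.03 (interval 1.67 to 2.46) for HGF scaffold to scaffold, 0.469 (interval 0.402 to 0.545) for scaffold to untreated and 0.951 (interval 0.806 to 1.12) for HGF scaffold to untreated. Lpar1, a receptor for lysophosphatidic acid, was at 809 CPM with the HGF scaffold, 497 CPM with the scaffold and 832 CPM untreated and had ratios of 1.63 (interval 1.15 to 2.29) and 0.598 (interval 0.458 to 0.776) in the first 2 of these. Fgfr2 was at 1186 CPM (HGF scaffold), 1138 CPM (scaffold) and 1057 CPM (untreated), and its 3 intervals included 1. Erbb4 and Lpar1 were thus low in the scaffold library and close between the other 2. Igf1r, the receptor for insulin-like growth factor 1, was at 586 CPM in HGF scaffold, 852 CPM in scaffold and 823 CPM in untreated nuclei, a ratio of 0.688 (interval 0.476 to 0.975) for HGF scaffold to scaffold. Ntrk2, whose product binds the neurotrophin BDNF, was at 112 CPM with the HGF scaffold, 354 CPM with the scaffold and 202 CPM untreated, but in 3 HGF scaffold, 21 scaffold and 11 untreated nuclei, and astrocyte markers were also lowest in the HGF scaffold nuclei. Over the list of receptors, 0 of 13 genes were higher and 2 lower in scaffold against untreated nuclei, and 1 of 10 was higher and 3 lower in HGF scaffold against scaffold nuclei. Of these measured members, 1 had enough UMIs only through the untreated library and 2 only through the scaffold library, where each was higher.

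Of genes whose products inhibit axon growth, Rtn4, the gene of Nogo, was at 1060.5 CPM in HGF scaffold, 852 CPM in scaffold and 763 CPM in untreated nuclei. The ratio of HGF scaffold to untreated was 1.39 (interval 1.05 to 1.83), and 1.10 with the rule applied after thinning. Plxnb3, a semaphorin receptor gene, was at 195 CPM with the HGF scaffold, 74.3 CPM with the scaffold and 101 CPM untreated, a ratio of 2.63 (interval 1.15 to 6.07) for HGF scaffold to scaffold from 14 and 13 UMIs. Mag, a gene of the rule and the myelin-associated glycoprotein that binds axonal Nogo receptors, was at 809 CPM (HGF scaffold), 686 CPM (scaffold) and 768 CPM (untreated). Sema5a was at 83.7 CPM in HGF scaffold, 68.6 CPM in scaffold and 294 CPM in untreated nuclei, a scaffold to untreated ratio of 0.233 (interval 0.115 to 0.436) that became 0.714 with the rule after thinning. In HGF scaffold against scaffold nuclei the list had 1 higher and 0 lower by 2-fold of 3 measured. The 1 higher member, Plxnb3, had enough UMIs only through the HGF scaffold library, so its direction was fixed by that minimum. In scaffold against untreated nuclei the list had 0 higher and 1 lower by 2-fold of 5 measured. No common direction of these inhibitors was seen across the 3 libraries.

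Genes that tell mature oligodendrocyte states apart had medians below 0 in both implant libraries against the untreated library. The list of subtype markers had 0 higher and 3 lower of 10 in scaffold against untreated nuclei (median log2 ratio -0.69) and 0 higher and 4 lower of 10 in HGF scaffold against untreated nuclei (median -0.55). In HGF scaffold against scaffold nuclei 0 of 9 were higher and 3 lower (median -0.28). Over all genes measured, 4.25%, 12% and 12.8% were at least 2-fold lower in these 3 comparisons. Pex5l, a regulator of HCN channel trafficking, was at 1326 CPM in HGF scaffold, 789 CPM in scaffold and 2179 CPM in untreated nuclei. It had a scaffold to untreated ratio of 0.362 (interval 0.297 to 0.439) and an HGF scaffold to untreated ratio of 0.608 (interval 0.483 to 0.760). Grm3, a metabotropic glutamate receptor of mature oligodendrocytes, was at 1786 CPM with the HGF scaffold, 1212 CPM with the scaffold and 2339.6 CPM untreated. Grm3 had ratios of 0.518 (interval 0.439 to 0.609) and 0.763 (interval 0.624 to 0.928) in the same comparisons. Spock3, a proteoglycan gene, was at 600.0 CPM (HGF scaffold), 354 CPM (scaffold) and 611 CPM (untreated), with 0.580 (interval 0.422 to 0.790) and 0.981 (interval 0.679 to 1.39). Pex5l and Grm3 were thus highest without treatment in the chosen nuclei, while Spock3 was low in the scaffold library. The HGF scaffold to untreated ratios depended on the nuclei taken. That of Pex5l was 1.25 in nuclei with none of the 7 other-lineage genes, and that of Grm3 was 1.01 without nuclei with 3 or more myeloid markers. Spock3 ranged from 0.633 without nuclei with 3 or more non-myeloid markers to 1.41 without those with 3 or more myeloid markers.

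Other subtype markers varied beside the RNA of other cells. Ptgds, prostaglandin D synthase, was at 237 CPM in HGF scaffold, 589 CPM in scaffold and 887 CPM in untreated nuclei, and in all other nuclei at 550.4 CPM (HGF scaffold), 962 CPM (scaffold) and 1344 CPM (untreated). S100b, a calcium-binding protein shared with astrocytes, was at 97.7 CPM with the HGF scaffold, 412 CPM with the scaffold and 326 CPM untreated. Grm7 was at 209 CPM (HGF scaffold), 583 CPM (scaffold) and 1374 CPM (untreated), in 9 HGF scaffold, 40 scaffold and 34 untreated nuclei. Ptgds, S100b and Grm7 were lowest in the HGF scaffold nuclei, where astrocyte markers were also lowest, and the part of that RNA in these values was not tested. Apod, a lipocalin of mature oligodendrocytes, was at 600.0 CPM in HGF scaffold, 726 CPM in scaffold and 685 CPM in untreated nuclei, and its 3 intervals included 1.

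Ferritin genes were higher in both implant libraries than in the untreated library, in the chosen nuclei and in all other nuclei alike. Fth1, ferritin heavy chain, was at 530.2 CPM in HGF scaffold, 532 CPM in scaffold and 239 CPM in untreated nuclei. Its mature levels had ratios of 2.22 (interval 1.57 to 3.19) for scaffold to untreated and 2.22 (interval 1.42 to 3.44) for HGF scaffold to untreated. The HGF scaffold to untreated ratio was 1.42 without nuclei with 3 or more myeloid markers and 1.54 in nuclei with none of the 7 other-lineage genes. In nuclei with at least 2 of Mobp, Mog, Mag and Opalin it was 4.04. In other nuclei Fth1 was at 910.0 CPM (HGF scaffold), 909 CPM (scaffold) and 349 CPM (untreated), higher than in the chosen nuclei of every library. Ftl1, ferritin light chain, was at 363 CPM with the HGF scaffold, 246 CPM with the scaffold and 110.3 CPM untreated, and at 558 CPM (HGF scaffold), 438 CPM (scaffold) and 152 CPM (untreated) in other nuclei. Its scaffold to untreated difference turned round, however, when each nucleus was thinned to 500 UMIs. Over the list of iron and ferroptosis genes, 5 of 8 were higher and 0 lower in scaffold against untreated nuclei (median log2 ratio 1.10), and 2 of 5 higher and 0 lower in HGF scaffold against untreated nuclei (median 0.38). Of these members 2 and 1 had enough UMIs only through the implant library, where they were higher. Over all genes measured, 9.04% and 7% were at least 2-fold higher in these 2 comparisons. Tfrc, the transferrin receptor, had 3 UMIs in HGF scaffold, 34 in scaffold and 3 in untreated nuclei, and Nfe2l2, the oxidative stress factor NRF2, had 2 UMIs in HGF scaffold, 46 in scaffold and 13 in untreated nuclei. Both were thus highest in the scaffold library. Tfrc had enough UMIs only through that library against both others, and Nfe2l2 did against the HGF scaffold library. Those directions were fixed by the minimum. Tf, transferrin, a known product of oligodendrocytes, was at 921 CPM (HGF scaffold), 875 CPM (scaffold) and 799.8 CPM (untreated), and its 3 intervals included 1. B2m, the light chain of MHC class I, was at 419 CPM in HGF scaffold, 269 CPM in scaffold and 161 CPM in untreated nuclei, with a ratio of 2.60 (interval 1.54 to 4.36) for HGF scaffold to untreated. This ratio was 1.73 without nuclei with 3 or more myeloid markers and 1.59 in nuclei with none of the 7 other-lineage genes. In nuclei with at least 2 of Mobp, Mog, Mag and Opalin it was 4.74, so its size depended on membership.

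Apoe, an apolipoprotein that astrocytes and macrophages make in quantity, was at 1228 CPM (HGF scaffold), 1178 CPM (scaffold) and 524 CPM (untreated) in the chosen nuclei. In other nuclei it was at 2929 CPM (HGF scaffold), 2127 CPM (scaffold) and 948 CPM (untreated). The untreated library was the lowest both inside and outside the chosen nuclei, for Apoe and for the myeloid markers. Stat3, a transcription factor of cytokine signalling, was at 516 CPM with the HGF scaffold, 280.2 CPM with the scaffold and 317 CPM untreated, a ratio of 1.84 (interval 1.17 to 2.88) for HGF scaffold to scaffold. Fkbp5, a glucocorticoid response gene, was at 363 CPM (HGF scaffold), 172 CPM (scaffold) and 193 CPM (untreated), a ratio of 2.12 (interval 1.20 to 3.70) in the same comparison. The list of genes reported for disease-associated oligodendrocytes, which includes Apoe, B2m, Fth1, Stat3 and Fkbp5, had 2 higher and 1 lower of 10 in scaffold against untreated nuclei. It had 1 higher and 0 lower of 8 in HGF scaffold against scaffold, and 3 higher and 1 lower of 9 in HGF scaffold against untreated nuclei. Over all genes measured, the shares higher and lower were 9.04% and 4.25%, 4.24% and 12.8%, and 7% and 12% in the same order.

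Hypoxia and glycolysis genes are given singly, because 6 of the 10 measured in scaffold against untreated nuclei and 3 of the 4 in HGF scaffold against untreated nuclei had enough UMIs only through the implant library. Slc2a1, the glucose transporter GLUT1, was at 167 CPM in HGF scaffold, 132 CPM in scaffold and 32.2 CPM in untreated nuclei. The gene had a ratio of 4.09 (interval 1.70 to 11.3) for scaffold to untreated and 5.20 (interval 1.89 to 15.6) for HGF scaffold to untreated. Hif1a, the oxygen-regulated transcription factor, was at 167 CPM with the HGF scaffold, 234 CPM with the scaffold and 96.5 CPM untreated, against 543 CPM (HGF scaffold), 523 CPM (scaffold) and 236 CPM (untreated) in other nuclei. Hif1a was lowest in the untreated library, as the myeloid markers were, and no order is read for Slc2a1. Inflammatory genes known from macrophages and neutrophils were near 0 in untreated nuclei. Of the 8 measured in each comparison with the untreated library, 6 (scaffold) and 7 (HGF scaffold) had enough UMIs only through the implant library, so their direction was fixed by that minimum, and no count or median is read from the list. Spp1, osteopontin, was at 265 CPM (HGF scaffold), 526 CPM (scaffold) and 4.60 CPM (untreated) in 13 HGF scaffold, 55 scaffold and 1 untreated nuclei. In other nuclei Spp1 was at 1417 CPM (HGF scaffold), 1108 CPM (scaffold) and 161 CPM (untreated), well above the chosen nuclei in every library. Lyz2, a lysozyme of phagocytes, was at 335 CPM in HGF scaffold, 194 CPM in scaffold and 36.8 CPM in untreated nuclei, and in other nuclei at 906 CPM (HGF scaffold), 440.1 CPM (scaffold) and 79.3 CPM (untreated). Nfkbia, the inhibitor that NF-kappaB itself induces, was at 419 CPM with the HGF scaffold, 217 CPM with the scaffold and 13.8 CPM untreated. The part of RNA from myeloid cells in these values was not tested, and each of the named genes was higher outside the chosen nuclei where the outside value is given.

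**Figure D4:**
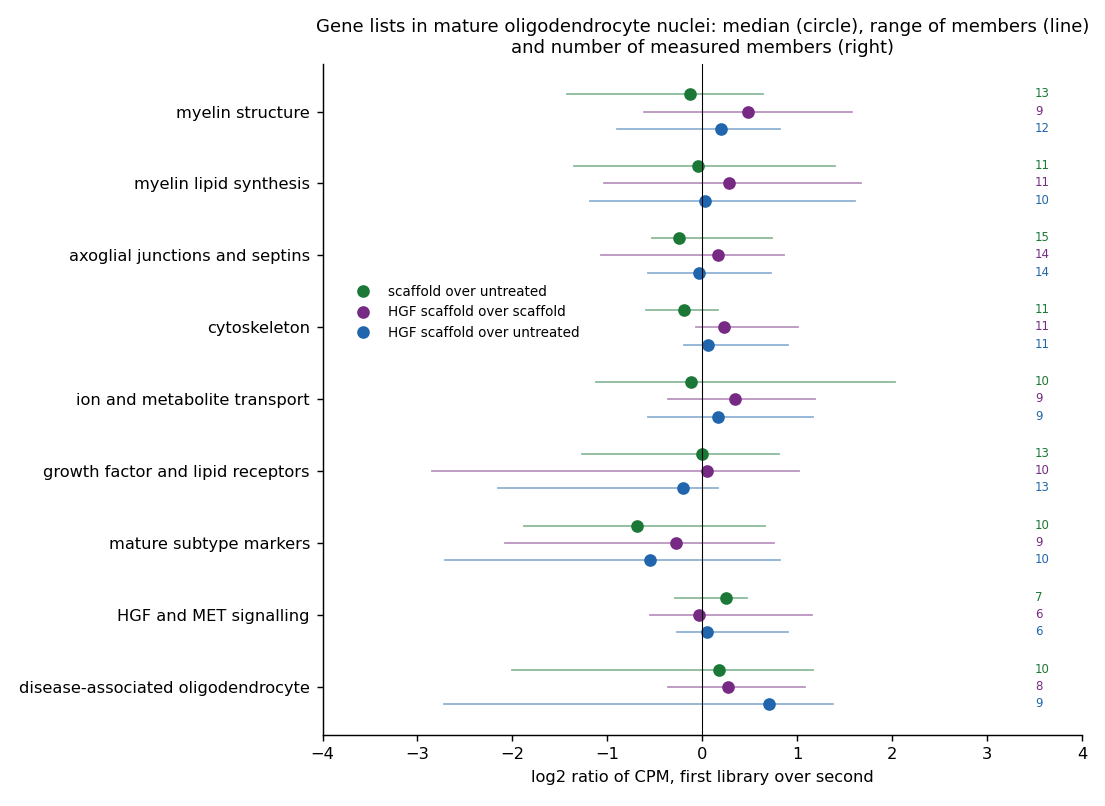
Median log2 CPM ratio of each gene list in mature oligodendrocyte nuclei for the 3 comparisons (circles), with the range of its measured members (lines) and their number at the right. The list of mature subtype markers lay at -0.55 for HGF scaffold to untreated and -0.69 for scaffold to untreated, while myelin structure lay at -0.13 for scaffold to untreated and 0.48 for HGF scaffold to scaffold.

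Cxcl2 and Il1b, a neutrophil chemokine and interleukin 1 beta, came largely from single nuclei. Cxcl2 had 18 UMIs in HGF scaffold, 113 in scaffold and 0 in untreated nuclei, and the highest single nucleus held 8 (HGF scaffold), 105 (scaffold) and 0 (untreated). Il1b had 38 UMIs in HGF scaffold, 15 in scaffold and 0 in untreated nuclei, and the highest single nucleus held 32 (HGF scaffold), 6 (scaffold) and 0 (untreated). Their ratios therefore rested largely on 1 scaffold nucleus for Cxcl2 and 1 HGF scaffold nucleus for Il1b.

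HGF and its receptor were almost undetected in these nuclei. Met had 0 UMIs in HGF scaffold, 5 in scaffold and 2 in untreated nuclei, and Hgf had 2 UMIs in HGF scaffold, 4 in scaffold and 1 in untreated nuclei. A count of 0 among 71668 UMIs, read at a floor of 3 counts, is 41.9 CPM, and its exact 95% upper bound is 51.5 CPM, so Met with the HGF scaffold was not detectable at this depth and no order could be read. The adaptors downstream of MET were detected. Gab1, the docking protein of MET, was at 1298 CPM in HGF scaffold, 1212 CPM in scaffold and 1158 CPM in untreated nuclei, and its 3 intervals included 1. Ptpn11, the gene of the phosphatase SHP2, was at 558 CPM with the HGF scaffold, 252 CPM with the scaffold and 299 CPM untreated. This was a ratio of 2.22 (interval 1.41 to 3.48) for HGF scaffold to scaffold and 1.87 (interval 1.23 to 2.81) for HGF scaffold to untreated. Gab2 was at 530.2 CPM (HGF scaffold), 778 CPM (scaffold) and 634 CPM (untreated), lower with the HGF scaffold than with the scaffold at a ratio of 0.682 (interval 0.463 to 0.983). Of the list of HGF and MET signalling, 0 of 7 genes passed 2-fold in scaffold against untreated nuclei. In the others, 1 of 6 was higher and 0 lower in HGF scaffold against scaffold, and 0 of 6 passed in HGF scaffold against untreated nuclei.

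The genes farthest from equal levels were ranked by the bound of the exact interval nearest to 1. Only genes at least as high in the chosen nuclei as in all others were ranked. They also needed at least 50 UMIs in both libraries together. A gene can pass that minimum through its higher library alone, and its direction in the ranking is then fixed by it. For HGF scaffold against scaffold, the 10 higher genes were Il1b, Usp54, Arap2, Tspan2, Ppp2r3a, Aspa, Rnf43, Krit1, Plcl1 and Erbb4. Arap2, a GTPase-activating protein for ARF6, was at 1786 CPM in HGF scaffold, 658 CPM in scaffold and 1139.9 CPM in untreated nuclei, a ratio of 2.72 (interval 2.10 to 3.53). Rnf43, a ubiquitin ligase that removes Wnt receptors, was at 1033 CPM with the HGF scaffold, 394 CPM with the scaffold and 676 CPM untreated, a ratio of 2.62 (interval 1.86 to 3.69). Ppp2r3a, a regulatory subunit of protein phosphatase 2A, was at 642 CPM (HGF scaffold), 212 CPM (scaffold) and 349 CPM (untreated), a ratio of 3.03 (interval 1.93 to 4.81). Krit1 and Plcl1 had ratios of 2.93 (interval 1.75 to 4.92) and 1.97 (interval 1.72 to 2.26). Usp54 was spread over nuclei: its 150 UMIs in HGF scaffold, 129 in scaffold and 254 in untreated nuclei were found in 47 HGF scaffold, 52 scaffold and 68 untreated nuclei. Of these 10 genes 9 were past 2-fold, of which 6 were still past it with the rule applied after thinning, 9 in nuclei with at least 2 of Mobp, Mog, Mag and Opalin, and 8 without nuclei with 3 or more markers of a non-myeloid type. Without nuclei with 3 or more myeloid markers, 6 of the 8 with enough UMIs were past it. Il1b, Aspa and Krit1 passed the minimum of the ranking only through the HGF scaffold library, so their direction in it was fixed.

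The 10 lower genes in that comparison were Galntl6, Esrrg, Lrrtm4, Cntnap5c, Cntn4, Kcnip4, Nlgn1, Dcc, S100b and Gfap. Lrrtm4 and Nlgn1 encode synaptic adhesion proteins, Cntn4 a neuronal contactin and Gfap the astrocyte filament. Lrrtm4 was at 97.7 CPM in HGF scaffold, 1063 CPM in scaffold and 1273 CPM in untreated nuclei, and Gfap was at 181 CPM with the HGF scaffold, 606 CPM with the scaffold and 561 CPM untreated. Esrrg, an orphan nuclear receptor, had 1 UMI in HGF scaffold, 97 in scaffold and 22 in untreated nuclei, and the highest single nucleus held 1 (HGF scaffold), 61 (scaffold) and 5 (untreated). Genes of neurons and astrocytes were thus among those lowest with the HGF scaffold, where astrocyte markers summed to 488 CPM, against 1641 CPM with the scaffold. Neuron markers did not follow that order and summed to 837 CPM with the HGF scaffold and 789 CPM with the scaffold. All 10 were past 2-fold. With the rule applied after thinning 9 were, and 9 in nuclei with at least 2 of Mobp, Mog, Mag and Opalin. Without nuclei with 3 or more non-myeloid markers 8 were, and without those with 3 or more myeloid markers 10. However, Galntl6, Esrrg, Lrrtm4, Cntnap5c, Cntn4, Dcc, S100b and Gfap passed the minimum of the ranking only through the scaffold library. Their direction was fixed by that minimum, so these counts are a description.

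For scaffold against untreated nuclei the 10 higher genes were Cxcl2, Chst9, Esrrg, Ubap2, Galntl6, Kazn, Cux2, Nmnat2, Zc3h7a and Arnt. Kazn, the gene of kazrin, a protein of cell junctions, was at 2177 CPM in HGF scaffold, 1801 CPM in scaffold and 1080.2 CPM in untreated nuclei, a ratio of 1.67 (interval 1.40 to 1.98). Arnt, the partner of HIF1A in transcription, had a ratio of 2.24 (interval 1.34 to 3.81) from 45 and 25 UMIs. Chst9 had 3 UMIs in HGF scaffold, 46 in scaffold and 7 in untreated nuclei, and its highest single nucleus held 2 (HGF scaffold), 26 (scaffold) and 2 (untreated). Of these 10 genes 8 were past 2-fold, of which 2 were still past it with the rule applied after thinning and 7 in nuclei with at least 2 of Mobp, Mog, Mag and Opalin. Without nuclei with 3 or more non-myeloid markers 5 of 7 were past it, and without those with 3 or more myeloid markers 7 of 8. After thinning only 7 of the 10 kept a ratio above 1, so this set depended on membership. Esrrg was then at 0.547, Cux2 at 0.816 and Galntl6 at 0.567. Cxcl2, Chst9, Esrrg, Ubap2, Cux2, Zc3h7a and Arnt passed the minimum of the ranking only through the scaffold library. Their direction in the ranking was fixed by that minimum.

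The 10 genes lower in scaffold than in untreated nuclei were Pde11a, Eda, Kcnip4, Grik1, Pex5l, Asic2, Tmeff2, Grm7, Erbb4 and Galnt13. Tmeff2, a transmembrane protein gene, was at 5512 CPM in HGF scaffold, 3253 CPM in scaffold and 7097 CPM in untreated nuclei, a ratio of 0.458 (interval 0.416 to 0.505). Kcnip4, a potassium channel subunit of neurons, had 15 UMIs in HGF scaffold, 130 in scaffold and 641 in untreated nuclei, and its highest single nucleus held 10 (HGF scaffold), 25 (scaffold) and 270 (untreated). Asic2, an acid-sensing channel, had 18 UMIs in HGF scaffold, 128 in scaffold and 440 in untreated nuclei, and its highest single nucleus held 4 (HGF scaffold), 23 (scaffold) and 200 (untreated). Pex5l and Erbb4 were found in 61 and 72 untreated nuclei, and without the highest nucleus of each library their ratios were 0.413 (interval 0.335 to 0.505) and 0.481 (interval 0.410 to 0.563). The ratio of Kcnip4 was then 0.354 (interval 0.282 to 0.440) and that of Asic2 0.533 (interval 0.420 to 0.673), so 1 nucleus held a large part of the difference for Asic2. All 10 were past 2-fold, and 2 were with the rule applied after thinning, where Asic2 turned to 1.19. In nuclei with at least 2 of Mobp, Mog, Mag and Opalin 7 of 9 were past 2-fold. Without nuclei with 3 or more non-myeloid markers 5 of 9 were, and without those with 3 or more myeloid markers 8 of 10. Pde11a, Eda and Grik1 passed the minimum of the ranking only through the untreated library, so their direction in it was fixed.

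**Figure D5:**
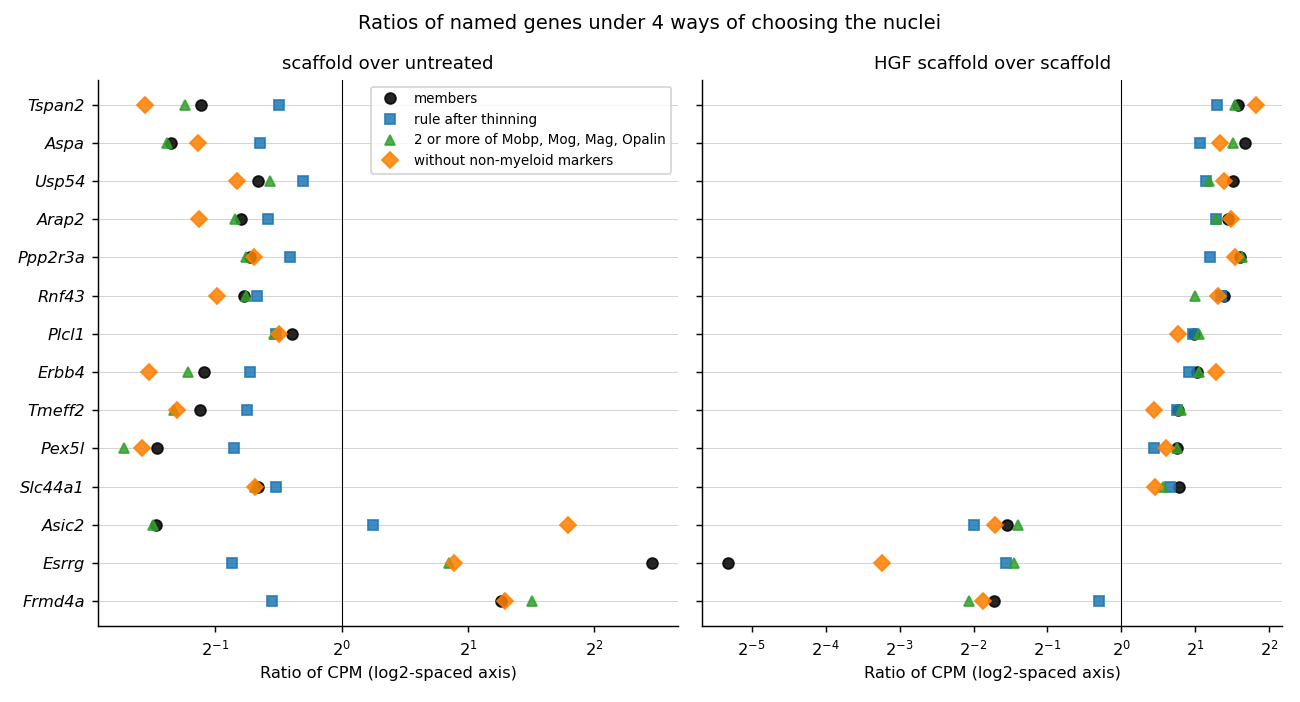
CPM ratios of 14 genes in scaffold over untreated and HGF scaffold over scaffold, under 4 ways of choosing the nuclei: the rule on all UMIs, the rule after thinning to 500 UMIs, at least 2 of Mobp, Mog, Mag and Opalin, and the rule without nuclei that held 3 or more markers of a non-myeloid type (log axis, with a line at equal levels). Esrrg lay at 5.48 for scaffold to untreated on all UMIs and below 1 with the rule after thinning, whereas Usp54 and Arap2 stayed above 1 for HGF scaffold to scaffold.

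For HGF scaffold against untreated nuclei the 10 higher genes included Picalm, Kazn, Gfod1, Amd1, Srsf5, Usp54, Ggnbp2, Pip4k2a and Kif1b. Picalm, a clathrin assembly protein gene, was at 2107 CPM in HGF scaffold, 1264 CPM in scaffold and 1011 CPM in untreated nuclei, a ratio of 2.08 (interval 1.68 to 2.57). Pip4k2a, a phosphoinositide kinase, was at 1772 CPM with the HGF scaffold, 1006 CPM with the scaffold and 988 CPM untreated, a ratio of 1.79 (interval 1.43 to 2.24). Kif1b, a kinesin known from zebrafish to be needed for placing myelin RNA, was at 1619 CPM (HGF scaffold), 1189 CPM (scaffold) and 919 CPM (untreated), a ratio of 1.76 (interval 1.39 to 2.22). All 10 kept a ratio above 1 under the 4 other memberships tried, and 3 to 7 of the 7 past 2-fold stayed past it. Amd1 and Ggnbp2 passed the minimum of the ranking only through the HGF scaffold library, so their direction in it was fixed. The 10 genes lower in HGF scaffold than in untreated nuclei were Kcnip4, Lrrtm4, Asic2, Dcc, Grm7, Galntl6, Reln, Kcnb2, Grik1 and Grin2b. They include genes of neuronal channels and receptors, and neuron markers summed to 837 CPM in HGF scaffold nuclei and 1223 CPM in untreated nuclei. Dcc, the netrin receptor, had 6 UMIs in HGF scaffold, 67 in scaffold and 198 in untreated nuclei, and its highest single nucleus held 4 (HGF scaffold), 14 (scaffold) and 108 (untreated). All 10 were past 2-fold and stayed so after thinning and in nuclei with at least 2 of Mobp, Mog, Mag and Opalin. They also stayed so without nuclei with 3 or more myeloid markers, but without those with 3 or more non-myeloid markers 5 of 9 did. At least Lrrtm4, Dcc and Galntl6 passed the minimum of the ranking only through the untreated library. Their direction was fixed by that minimum, so these counts are a description.

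Newly forming oligodendrocytes shared part of the pattern. Tspan2 was there at 678 CPM (HGF scaffold), 332 CPM (scaffold) and 394 CPM (untreated), an HGF scaffold to scaffold ratio of 2.04 (interval 1.21 to 3.38), against 2.98 in mature nuclei. Arap2 stood at 1148 CPM (HGF scaffold), 447 CPM (scaffold) and 729 CPM (untreated), a ratio of 2.57, and Nfasc was at 4513 CPM (HGF scaffold), 1703 CPM (scaffold) and 2436 CPM (untreated), a ratio of 2.65. Tspan2, Arap2 and Nfasc were thus higher with the HGF scaffold than with the scaffold at both stages. Erbb4 stood at 1278 CPM (HGF scaffold), 1306 CPM (scaffold) and 2069.7 CPM (untreated), with an HGF scaffold to scaffold ratio of 0.978 (interval 0.699 to 1.35), where mature nuclei had 2.03 (interval 1.67 to 2.46). These intervals did not overlap for Erbb4, but they come from the same 2 libraries, and the difference between stages has no replicate. Fth1 in newly forming nuclei stood at 235 CPM (HGF scaffold), 397 CPM (scaffold) and 113 CPM (untreated), with a scaffold to untreated ratio of 3.52, against 2.22 in mature nuclei.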

How the data were processed

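Nuclei of 3 libraries, 1 per group, were captured in droplets with a 3′ kit, per the labels' protocols. The files deposited by the authors are raw UMI counts, gene by nucleus. Cell Ranger 6.0.1 is named in the submitters' processing notes. The genome build is not given in the sources used here. The rule was applied to every deposited nucleus (17328 genes), and the counts of the chosen nuclei were summed per library and scaled to CPM. Library totals were 1450757 UMIs (HGF scaffold), 5791715 (scaffold) and 5953189 (untreated).

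Ratios carry exact conditional intervals, CPM exact Poisson intervals and shares Clopper-Pearson intervals, each at 95% and for counting error only. A gene was measured at 20 UMIs or more in both libraries together, counted at a 2-fold ratio, and a count of 0 was read as 3 counts. With 1 library per group no p-value is given. Named genes had at least 50 UMIs, lay outside the rule and were the 10 per direction with the interval bound farthest from 1, plus up to 4 per gene list. Some genes are not reported here by name. Genes of lists beyond these 4, and those described for single nuclei, were chosen after their values were seen. The members and lists were chosen with earlier results of these data known. Thinning drew 500 UMIs per nucleus at random seed 1. Alternatives were scalings (median-of-ratios factors, and TMM factors from edgeR 4.0.16), UMI minimums, thinning, quality and doublet filters and other memberships. The rule after thinning with all UMIs summed, the membership by 2 of Mobp, Mog, Mag and Opalin, the removals by 3 or more markers of other types and the removal of a gene's highest nucleus were added after seeing the data. Sums and ratios were checked on simulated counts. Python 3.11.15, numpy 2.4.6, scipy 1.17.1, pandas 2.3.3, scanpy 1.11.5 and R 4.3.3 were used.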

Additional observations from a re-analysis of the deposited data

Results flagged for a closer look

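Several genes lay on opposite sides of equal levels in mature and in newly forming oligodendrocyte nuclei of the same libraries. For scaffold to untreated, the CPM ratio of Frmd4a was 2.40 (interval 1.98 to 2.91) in mature nuclei and 0.707 (0.649 to 0.770) in newly forming nuclei, that of Grm7 was 0.424 (interval 0.336 to 0.533) in mature nuclei and 1.97 (1.54 to 2.51) in newly forming nuclei, and that of Esrrg was 5.48 (interval 3.43 to 9.15) in mature nuclei and 0.323 (0.221 to 0.460) in newly forming nuclei. Kcnip4 had 0.252 (interval 0.207 to 0.305) in mature nuclei and 1.64 (1.38 to 1.96) in newly forming nuclei, and Asic2 had 0.362 (interval 0.295 to 0.442) in mature nuclei and 1.65 (1.32 to 2.06) in newly forming nuclei. Dcc had 0.421 (interval 0.314 to 0.558) in mature nuclei and 3.88 (2.65 to 5.72) in newly forming nuclei, and Kcnb2 had 0.449 (interval 0.309 to 0.642) in mature nuclei and 4.10 (2.89 to 5.86) in newly forming nuclei. For HGF scaffold to scaffold, Frmd4a had 0.303 (interval 0.212 to 0.424) in mature nuclei and 1.91 (1.68 to 2.17) in newly forming nuclei. Each exact interval of one stage lay wholly on the other side of 1 from that of the other stage, for counting error only, and the difference was not tested over replicates. In mature nuclei Frmd4a had 39 UMIs in HGF scaffold, 314 in scaffold and 163 in untreated nuclei, and its highest single nucleus held 12 (HGF scaffold), 141 (scaffold) and 37 (untreated). The values of Esrrg, Kcnip4, Asic2 and Dcc in single nuclei stand with the named genes. Without the highest nucleus of each library, the scaffold to untreated ratios in mature nuclei were 0.735 (interval 0.513 to 1.04) for Dcc, 0.508 (interval 0.330 to 0.766) for Kcnb2, 0.533 (interval 0.420 to 0.673) for Asic2, 2.62 (interval 1.43 to 4.97) for Esrrg and 1.71 (interval 1.35 to 2.17) for Frmd4a. With the rule applied after thinning, 5 of these 7 genes had a mature scaffold to untreated ratio on the same side of 1 as the newly forming nuclei, with Frmd4a at 0.680, Esrrg at 0.547, Asic2 at 1.19, Dcc at 1.67 and Kcnb2 at 1.01. Grm7 was then at 0.786 and Kcnip4 at 0.658, and Frmd4a was at 0.807 for HGF scaffold to scaffold, on the same side as on all UMIs. Thinning can hide Enpp6 or Bcas1, so nuclei that are newly forming on all UMIs can enter the mature set after thinning. Newly forming nuclei went from 50 to 27 (scaffold) and from 118 to 57 (untreated) with thinning. The shared side of these 5 genes can thus come from shared nuclei, which was not tested, and no conclusion on the stages is drawn from it.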

How the results depend on the processing

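No paired analysis was possible because each group holds 1 library. Of 174 summary values under the alternatives, 122 stayed within their margin, 51 moved and 1 turned round. The margin was 1.5 times for a count, the counting interval for a share, and for a median an interval over the members of its list. Of 7089 values of single genes and lists, 6444 stayed, 603 moved and 42 turned round. Part of these values could not change. A UMI minimum leaves the ratio of a gene as it was, and the quality and doublet filters removed no chosen nucleus. Each of those filters gave 456 values that stayed. With each nucleus thinned to 500 UMIs, 297 stayed, 102 moved and 4 turned round. The totals are therefore no measure of how far the results held. The medians of myelin structure stayed within their margin under every alternative run, but that margin is wide, as it spans most of 9 to 13 genes. For HGF scaffold to untreated, a median of 0.19 that became -0.01 under both other scalings counted as staying. A membership of at most 2 marker genes of other types left 32, 3 and 8 nuclei (HGF scaffold, scaffold, untreated), so only its share was computed.

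Counts of genes at least 2-fold higher and lower moved with the UMI minimum, thinning and membership. The causes were not tested, apart from the number of genes a minimum lets in. For scaffold to untreated they were 1370 and 745 at 1 UMI, 805 and 397 at 10, 75 and 57 at 50, 60 and 66 with each nucleus thinned, 112 and 95 without any other-lineage marker, 750 higher with the rule after thinning and 183 higher without nuclei with 3 or more myeloid markers. For HGF scaffold to scaffold they were 557 and 1218 at 1 UMI, 372 and 797 at 10, 30 and 99 at 50, 68 and 71 with each nucleus thinned, 107 lower without any other-lineage marker, 273 and 1003 with the rule after thinning, and 227, 209 and 166 lower with at least 2 of Mobp, Mog, Mag and Opalin, without 3 or more non-myeloid markers and without 3 or more myeloid markers. For HGF scaffold to untreated they were 109 higher under both scalings, 1098 and 803 at 1 UMI, 563 and 629 at 10, 37 and 125 at 50, 70 and 103 with each nucleus thinned, 133 higher without the deepest 10%, 71 and 139 without any other-lineage marker, 520 and 812 with the rule after thinning, 131 and 193 without 3 or more non-myeloid markers, and 243 lower with at least 2 of Mobp, Mog, Mag and Opalin.

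The share ratio of scaffold to untreated was 0.390 at most 2 marker genes of other types and 0.577 without 3 or more myeloid markers. That of HGF scaffold to scaffold was 3.01 without any other-lineage marker, 25.5 at most 2 marker genes of other types, 1.09 after thinning and 2.71 without 3 or more myeloid markers. That of HGF scaffold to untreated was 9.94 at most 2 marker genes of other types and turned round to 0.833 after thinning.

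Log2 ratios of genes past 2-fold, and 1 list median, turned round as follows, with causes not tested. Ratios within 2-fold that changed side are not counted here, among them Galntl6 for scaffold to untreated (0.567 with the rule after thinning and 0.668 without 3 or more myeloid markers), Ptgds in that comparison (2.28 without 3 or more non-myeloid markers) and Pex5l for HGF scaffold to untreated (1.25 without any other-lineage marker). For scaffold to untreated, with the rule after thinning, Frmd4a was -0.56, Esrrg -0.87, Cux2 -0.29, Asic2 0.25, Dcc 0.74, Reln 0.50, Kcnb2 0.0196 and Mal 0.0914. Without 3 or more non-myeloid markers, Kcnip4 was 0.82, Asic2 1.79, Dcc 1.74 and Kcnb2 0.80, and without any other-lineage marker Frmd4a was -0.82, Asic2 0.41 and Dcc 2.30. Without the deepest 10% Asic2 was 0.50 and Dcc 1.31, and with each nucleus thinned Ftl1 was -1.0 and Dcc 0.14. For HGF scaffold to scaffold, without the deepest 10% Il1b was -1.59, Ccl3 -0.49 and the median of newly forming stage genes 0.0665. That median was 0.78 without 3 or more myeloid markers, where Ccl3 was -2.25 and mt-Co1 -1.06. Without any other-lineage marker Ptgds was 0.42, Ccl3 -3.30 and mt-Co1 -1.13. Without 3 or more non-myeloid markers Cxcl2 was 1.29 and Il1b -0.45, with the rule after thinning Il1b was -0.73, and with each nucleus thinned Ccl3 was -0.30. For HGF scaffold to untreated, without any other-lineage marker Ptgds was 0.26 and mt-Co1 -0.51, and without 3 or more myeloid markers mt-Co1 was -0.48. With at least 2 of Mobp, Mog, Mag and Opalin Nmnat2 was 0.19 and Gfap 0.0220, and without 3 or more non-myeloid markers Asic2 was 0.0899 and Gfap 0.24. Without the deepest 10% Cntn4 was 1.08 and Pfkfb3 -0.0239, and with each nucleus thinned Pfkfb3 was -0.10.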

Other observations

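Few genes of other stress and cell death lists had enough UMIs to be measured. Endoplasmic reticulum and integrated stress genes had 0 higher and 1 lower by 2-fold of 7 measured in scaffold against untreated nuclei (median log2 ratio -0.02), and immediate early and heat shock genes 2 higher and 0 lower by 2-fold of 6 measured (median 0.56). Genes of cell death and p53 signalling had 0 higher and 2 lower by 2-fold of 5 measured in the same comparison. Of these measured members 2, 2 and 1 had enough UMIs only through the library where they were higher. Mdm2, the ubiquitin ligase of p53, was at 55.8 CPM in HGF scaffold, 149 CPM in scaffold and 115 CPM in untreated nuclei, and Bcl2l1, an inhibitor of apoptosis, at 669.8 CPM with the HGF scaffold, 560.3 CPM with the scaffold and 611 CPM untreated.

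Slfn3, a Schlafen family gene, was at 460.5 CPM (HGF scaffold), 286 CPM (scaffold) and 101 CPM (untreated) in mature oligodendrocyte nuclei and at 1033 CPM (HGF scaffold), 416 CPM (scaffold) and 119 CPM (untreated) in other nuclei. Its ratio of HGF scaffold to untreated was 4.55 (interval 2.58 to 8.20), and the part of RNA from other cells in it was not tested.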
